A study of Mus musculus with 3 samples.

Results

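The regions described here were places of open chromatin called in divided CBir1 T cells and in neither of the other fractions of the study. Peaks of the 3 deposited lists on chromosomes 1 to 19 that shared at least 1 bp were merged, and a merged region was kept if it held a peak of the divided list and none of the undivided or polyclonal list. This left 7992 of 55946 merged regions (14.3%, Wilson 95% interval 14.0 to 14.6, which like all intervals here covers counting error only). They are called divided-only regions below. These regions were chosen by the authors' presence calls, which rest on each peak's q-value, so the peak heights and significance values of these regions are given as a description, and nothing is supported with them.

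The study asked how CBir1 cells polarise in colitis. CBir1 cells are CD4+ T cells from mice carrying a transgenic receptor for a flagellin of gut bacteria. Naive CBir1 cells were marked with the division dye CellTrace Violet and given to 4 wild-type C57BL/6J mice, whose gut barrier was then injured with 2% dextran sulfate sodium (DSS) over 7 days. FTY720, a drug that holds lymphocytes in lymph nodes, was dosed at 1 mg/kg on days 7, 10 and 13, and colon-draining mesenteric nodes were collected on day 14. The divided group was CBir1 cells with diluted dye, the undivided group was CBir1 cells that had kept it, and the polyclonal group was the hosts' own CD4+ cells with many receptors. All 3 groups came from DSS-treated and FTY720-treated hosts, and no library of untreated mice was analysed. Fractions of 2 mice were pooled, in duplicate, but 1 peak list per group was analysed here, so differences between groups could not be set against a spread and were not tested.

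ATAC-seq finds open chromatin by letting a transposase insert sequencing adapters into DNA that is not packed in nucleosomes. Promoters, at the start of genes, are open in many cell types, while enhancers, which lie inside or between genes, tend to open in fewer. A naive CD4+ T cell that is activated divides and can become a Th1, Th17, Th2, follicular helper or regulatory cell, and opening of enhancers at the genes of these fates, such as Ifng for Th1 cells, is a known part of that process.

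Sequences were available for promoters only, and 230 divided-only regions (2.97% of the 7751 on the chromosomes searched) overlapped a RefSeq promoter window, which runs from 250 bases before a gene's start to 50 after it. These windows numbered 259 and belonged to 241 genes. Divided-only regions covered 0.825% of the 31396 windows in the table. The 250 bases before the start are printed for the 4 protein-coding genes whose promoter region had the highest −log10 q-value (the authors' significance of the peak) and for Ifng and Ebi3, 2 T cell genes chosen after their values were seen. Sequences are RefSeq GRCm38.p6, 5′ to 3′ on the strand of the gene, and capitals mark letters that match 1 of the 19 motifs searched on both strands.

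Ifng: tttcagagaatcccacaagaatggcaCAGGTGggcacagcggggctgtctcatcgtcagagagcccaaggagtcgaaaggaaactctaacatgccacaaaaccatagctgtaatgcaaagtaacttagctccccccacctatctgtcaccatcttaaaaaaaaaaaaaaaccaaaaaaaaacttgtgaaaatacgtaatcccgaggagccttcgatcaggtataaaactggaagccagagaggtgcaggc
Ebi3: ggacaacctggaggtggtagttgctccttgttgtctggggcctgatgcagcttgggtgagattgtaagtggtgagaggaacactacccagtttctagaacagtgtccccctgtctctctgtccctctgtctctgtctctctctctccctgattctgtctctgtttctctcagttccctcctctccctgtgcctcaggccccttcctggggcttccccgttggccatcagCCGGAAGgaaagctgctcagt
Lpar3: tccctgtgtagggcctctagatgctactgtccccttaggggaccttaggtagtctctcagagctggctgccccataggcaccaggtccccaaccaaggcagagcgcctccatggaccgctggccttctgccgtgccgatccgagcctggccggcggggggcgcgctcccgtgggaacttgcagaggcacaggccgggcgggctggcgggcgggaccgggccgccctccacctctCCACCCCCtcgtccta
Kcnk10: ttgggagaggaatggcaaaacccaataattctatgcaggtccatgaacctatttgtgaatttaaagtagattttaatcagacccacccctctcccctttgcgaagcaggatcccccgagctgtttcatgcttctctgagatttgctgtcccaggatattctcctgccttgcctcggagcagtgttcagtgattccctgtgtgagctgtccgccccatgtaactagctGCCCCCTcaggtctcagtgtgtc
Ror1: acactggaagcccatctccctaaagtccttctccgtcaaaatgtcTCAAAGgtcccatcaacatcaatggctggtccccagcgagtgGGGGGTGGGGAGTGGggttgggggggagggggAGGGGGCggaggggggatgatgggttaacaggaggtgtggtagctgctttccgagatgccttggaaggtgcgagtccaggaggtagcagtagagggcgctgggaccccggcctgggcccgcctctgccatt
Marchf8: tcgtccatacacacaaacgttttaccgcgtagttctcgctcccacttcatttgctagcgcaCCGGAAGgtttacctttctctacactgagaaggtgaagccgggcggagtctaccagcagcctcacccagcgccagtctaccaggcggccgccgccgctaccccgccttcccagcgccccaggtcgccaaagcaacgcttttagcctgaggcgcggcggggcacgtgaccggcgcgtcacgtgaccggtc

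The Ifng stretch (chr10:118440796-118441045, plus strand) lies upstream of the gene of interferon gamma, the cytokine that defines Th1 cells. Its single match was the E box CACCTG, 224 bases before the start. The Ebi3 stretch (chr17:55952373-55952622, plus strand) belongs to a cytokine subunit gene of regulatory cells and held the letters CCGGAAG of ETS factors 21 bases before the start. The Lpar3 stretch (chr3:146220711-146220960, plus strand) precedes a lysophosphatidic acid receptor gene and held a KLF match (CCACNCCC). At Kcnk10 (chr12:98578214-98578463, minus strand), which encodes a potassium channel, the CTCF core AGGGGGC matched. At Ror1 (chr4:100095541-100095790, plus strand), which encodes a receptor of the tyrosine kinase family, 4 matches were found: 2 of KLF, 1 of the CTCF core and 1 of TCF and LEF (CTTTGA). The divided-only region there (chr4:100095773-100096303) overlapped only the end of the printed stretch. All 4 matches, 131 to 205 bases before the start, lay outside it. At Marchf8 (chr6:116337772-116338021, plus strand), a ubiquitin ligase gene, CCGGAAG matched. A match describes letters in the window and does not show that a factor was bound.

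Of the promoter regions printed, Lpar3 had the strongest peak, with a −log10 q of 26.7 and a summit pileup (overlapping fragments at the peak's highest point) of 31. Kcnk10 reached a −log10 q of 20.7 with a pileup of 26, Ror1 17.2 with a pileup of 21 and Marchf8 16.8 with a pileup of 21. The Ifng promoter region (chr10:118440666-118441084) was weaker, with a −log10 q of 9.16 and a pileup of 17, and so was that of Ebi3 (chr17:55952269-55952609), with a −log10 q of 6.39 and a pileup of 12. All 6 lacked a peak in both other lists, at which no level is listed.

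In base composition, promoter windows under divided-only regions lay between those open in all 3 libraries and those without a region. Their median GC content was 58.7%, against 62.0% and 48.3%, and their median number of CpG dinucleotides was 14, against 22 and 4. No motif is singled out from these windows, because shares were not compared at matched base composition. The AP-1 letters TGANTCA, bound by Fos, Jun and Batf proteins, occurred in 8.88% of the windows (5.99 to 13.0), against 7.84% of all windows, 4.44% of windows open in all 3 libraries and 10.0% of windows without a region. NFAT letters (TGGAAA) occurred in 18.1%, against 21.5% of all windows, RUNX letters (TGTGGTT) in 4.25% against 5.32%, and T-box letters (GGTGTGA) in 5.79% against 4.0%. CTCF core letters occurred in 18.5% of divided-only windows (14.3 to 23.7), which is more than the 10.7% of all windows but near the 17.0% of windows open in all 3 libraries. GATA letters (AGATAA) were found in 6.18% against 11.2% of all windows, where the windows open in all 3 libraries had 5.38%. IRF letters (GAAANNGAA) were found in 4.25% (2.39 to 7.44), against 8.52% of all windows and 6.67% of windows open in all 3 libraries. Read backwards, the IRF letters were found in 5.41%, against 7.92% of all windows.

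Beside promoters, divided-only regions overlapped 5 of the 919 microRNA hairpins on chromosomes 1 to 19, against 86 for regions of all 3 libraries. Undivided-only regions overlapped 2 and polyclonal-only regions 2. The classes differ in size and width, with 7992 divided-only regions (14.3% of all merged regions) and 31886 regions of all 3 libraries. MicroRNAs are short RNAs that silence messages pairing with their seed, bases 2 to 8. Mir29c and Mir9-2 are shown because their regions were the strongest of these, chosen after values were seen, and capitals mark the seed.

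miR-29c-3p: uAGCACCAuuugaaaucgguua
miR-29c-5p: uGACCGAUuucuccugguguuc
miR-9-5p: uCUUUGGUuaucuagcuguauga
miR-9-3p: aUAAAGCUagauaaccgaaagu

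The Mir29c region (chr1:195037274-195037723) had 11 piled-up fragments (−log10 q 5.73), and the Mir9-2 region (chr13:83738424-83738838) a pileup of 12 (−log10 q 5.97). MicroRNAs of the miR-29 family are known to restrain interferon gamma production in T cells. The 4 mature sequences had 4 different seeds. The Mir9-2 hairpin overlaps that of Gm51268 on the other strand, which counts among the 5.

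Most divided-only regions were narrow and weak. Their median width was 251 bp (middle 50% from 193 to 341), against 223 bp for regions of the undivided library alone, 224 bp for the polyclonal library alone and 781 bp for regions of all 3 libraries. The median pileup was 11 fragments, with a range of 6 to 100, against 50 in the divided library at regions of all 3. The authors' fold enrichment had a median of 4.29 and reached 22.2. The median −log10 q was 4.74, with a range of 1.31 to 60.5. A −log10 q of at least 5 was met by 3854 divided-only regions (48.2%), and 1170 of the 3486 undivided-only (33.6%) and 1309 of the 4176 polyclonal-only regions (31.3%) met it too. Each of the 7992 regions held exactly 1 divided peak.

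Depth differed between the libraries and bears on every presence call. The lowest local background, which scales with depth, was 1.21 fragments in divided cells, against 0.808 in undivided cells (a ratio of 1.496) and 0.865 in polyclonal cells (1.40). If the divided pileups and backgrounds were scaled down by these ratios, 7332 divided-only regions (91.7%) would still reach the lowest significance called in the other libraries. With the smaller ratios of 1.21 and 1.19, taken from regions of all 3 libraries, 7637 (95.6%) would do so. Only values at the summit were scaled. Width, at least 150 bp in every list, was not recomputed, so narrow regions that would drop out at lower depth still count. Local background also varied along the genome, and at 2039 divided-only regions (25.5%) it was at least 2 times the library's lowest, against 23.8% of undivided-only and 18.8% of polyclonal-only regions. No peak in a list is not the same as no signal. In bulk libraries, fewer cells with an open region and less opening per cell cannot be told apart.

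The share of divided-only regions near a gene end was lower in the stronger classes. The lowest class, with a −log10 q under 2, held 406 regions (5.08%), of which 9.36% were near a gene end, meaning that they overlapped the 1 kb either side of a protein-coding gene's first or last base. From 2 to 5 there were 3732 regions with 9.99% near a gene end, and from 5 to 10 there were 2786 with 7.72%. From 10 to 20 there were 967 with 7.24%, and the strongest class of 20 or more, 1.26% of the total, had 5.94% (2.75 to 12.4). Every class was far below the 33.1% of regions of all 3 libraries, but these were wider (median 781 bp, against 251 bp for divided-only regions). Among regions of 150 to 300 bp this gap was not seen, as given below.

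**Figure D1:**
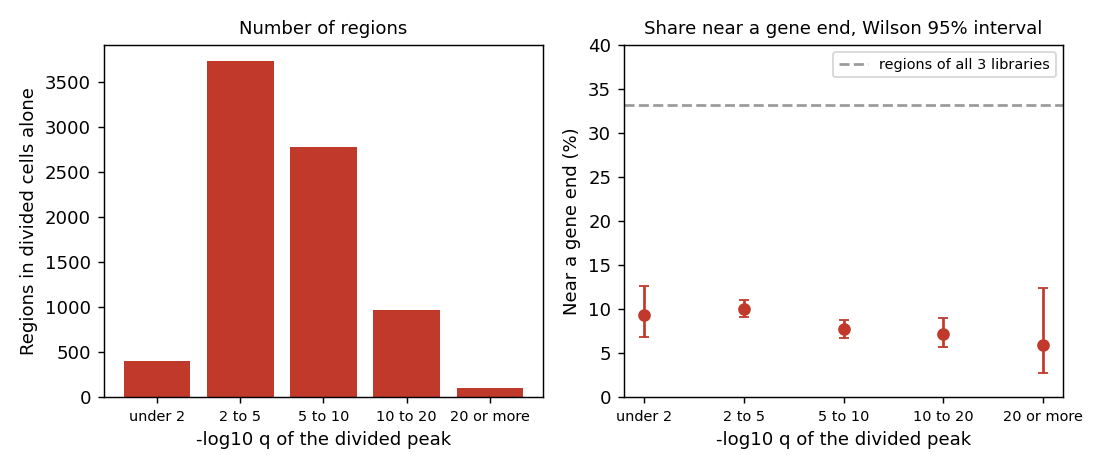
Left, the number of divided-only regions in 5 classes of the −log10 q of the divided peak. Right, the share of each class near a gene end in percent, with Wilson 95% intervals, beside the share in regions of all 3 libraries (dashed line). Most regions lay between 2 and 10, and in each class under 10% were near a gene end, against 33.1% for regions of all 3 libraries. Widths were not matched, and regions of all 3 libraries were wider.

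By place, 702 divided-only regions were near a gene end (8.78%, 8.18 to 9.42), 4269 were inside a gene (53.4%), 2540 lay between genes within 100 kb of one (31.8%) and 481 were farther away (6.02%). The shares near a gene end were about the same for regions of the undivided library alone (9.06%, 8.16 to 10.1) and the polyclonal library alone (8.33%, 7.53 to 9.21), so this place is not particular to divided cells. At like width the contrast with regions of all 3 libraries was not seen. Among regions of 150 to 300 bp, 8.21% of 5289 divided-only regions and 6.49% (4.89 to 8.58) of 693 regions of all 3 libraries were near a gene end. The table used gives gene spans without exons, so exons, introns and UTRs were not told apart.

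**Figure D2:**
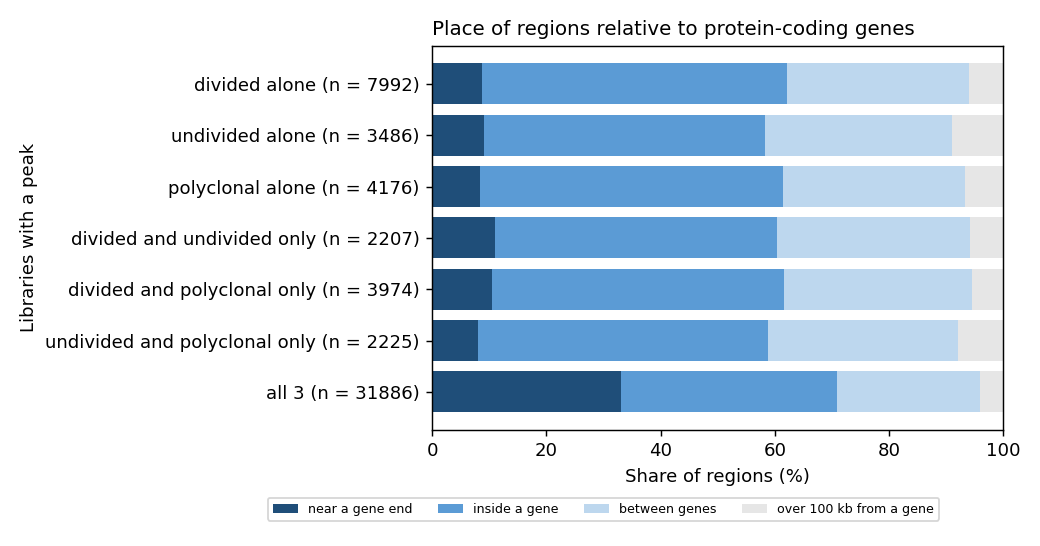
Share of regions in percent by place relative to protein-coding genes, for each combination of libraries with a peak; bars add up to 100%. The divided-only bar (n = 7992) had 8.78% near a gene end, close to the other bars of 1 library, and the bar of all 3 libraries (n = 31886) had 33.1%. Widths were not matched, and the contrast with all 3 libraries was not seen among regions of 150 to 300 bp.

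The share of divided-only regions among all regions of a chromosome ran from 12.8% on chromosomes 4 and 17 to 16.2% on chromosome 13. Taken 1 by 1, 5286 divided-only regions (66.1%) had no other within 20 kb, and 2706 (33.9%) fell into 1168 clusters. Only 16 clusters held 5 or more. The median distance to the nearest region of all 3 libraries was 10.1 kb, against 9.23 kb for undivided-only and 10.4 kb for polyclonal-only regions.

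The region of highest −log10 q was chr8:115770932-115771352, 421 bp wide, 64038 bp from Maf, which encodes a transcription factor of follicular helper and interleukin-producing T cells. Its divided peak had a pileup of 58, a fold enrichment of 19.9 and a −log10 q of 60.5. A second divided-only region at Maf (chr8:115739837-115740241) had a pileup of 38 (−log10 q 19.3). Long noncoding RNA genes were nearer to the first region than Maf was, among them Gm30712 at 40924 bp, so the nearest protein-coding gene need not be its target.

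A Runx3 region ranked ninth. RUNX3 is a transcription factor that acts with the T-box factors at Ifng and silences Il4. The region, chr4:135073439-135073867, lay 46778 bp from the gene and 47.0 kb upstream of its start, with 47 piled-up fragments (−log10 q 32.7). It stood between regions called in all 3 libraries at 53.7 and 40.6 kb upstream, where pileups were 89, 102 and 76, and 156, 117 and 117, in the divided, undivided and polyclonal library. The Runx3 promoter was also called in all 3, with pileups of 111, 112 and 89. None of these pileups was scaled for depth. The other 3 divided-only regions of the gene were weak, with −log10 q values of 3.20 to 4.32.

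Other strong regions lay at genes with a less known role in helper T cells. At Il31ra, a cytokine receptor gene, the region chr13:112578169-112578336 had 36 piled-up fragments (−log10 q 37.8), and the receptor gene Il6st was 71309 bp away. Within Nfkbil1 the region chr17:35231131-35231411 had a pileup of 85 (−log10 q 32.5) over a high local background of 15.2 fragments, 25553 bp from Lta, 29124 bp from Tnf and 34826 bp from Ltb, which encode cytokines of the tumour necrosis factor family. Inside Ralgapb (chr2:158450781-158451091) the pileup was 54 (−log10 q 51.9), and inside Plcb4, a phospholipase gene (chr2:135988549-135988797), it was 45 (−log10 q 50.6). Dym (chr18:75262119-75262592) held a region with a pileup of 45 (−log10 q 32.6), and Med12l (chr3:59203821-59204529) one with a pileup of 50 (−log10 q 31.6), near the purine receptor genes P2ry13 and P2ry12.

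The remaining regions of the 12 highest lay at poorly described genes. They were chr8:20007043-20007291, nearest to 9530057J20Rik, with 60 piled-up fragments (−log10 q 59.9), and chr8:20396812-20397056, nearest to Gm15319, with a pileup of 71 (−log10 q 56.4). At Pcdh20, a cell adhesion gene, chr14:88479290-88479442 was 153 bp wide and had a pileup of 48 (−log10 q 56.2). The region chr3:21809558-21810180, with a pileup of 45 (−log10 q 39.5), had no protein-coding gene within 100 kb and lay 8787 bp from the noncoding RNA gene 7530428D23Rik. Of all regions with a −log10 q of at least 20, 28 were up to 300 bp wide.

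At the other end, the 5 regions just inside the authors' threshold had −log10 q values of 1.31 to 1.32 and were nearest to Rfx4, Itgal, Olfm2, Rab21 and Car15. Just outside the rule were 5 regions of divided peaks whose only other peak was barely called. These were at Tg, Slc29a3 and Nab1 with a polyclonal peak and at Tent4a and Sp3 with an undivided one, at −log10 q values of 1.36 to 1.39. Their divided peaks reached 2.28 at Tg, 4.14 at Tent4a, 8.65 at Slc29a3, 10.5 at Nab1 and 5.41 at Sp3. Had these weak peaks not been called, the first 5 regions would leave the set and the other 5 would enter it.

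Regions were next counted by gene. Within 100 kb of a protein-coding gene lay 7511 divided-only regions, 14.2% of all regions so assigned. Of 14550 genes with a region, 4805 (33.0%) had at least 1 divided-only region, 3282 had exactly 1 and 140 had 5 or more. The gene with most was Wwox, with 13 of its 63 regions (20.6%), followed by Bach2 with 12 of 60 and Nfatc2 with 12 of 23 (52.2%). Ifng and Trerf1 had 10 of 20 each (50%). Genes with many regions tend to be long, and the median length of the 20 genes with most was 343 kb, against 22.5 kb for all genes with a region. Ifng was the shortest of the 20, at 4.85 kb. The order changed with the counting: Nfatc2 came first with 12 regions within 20 kb and with 11 after scaling for depth, and Ifng with 8 regions of −log10 q 5 or more, where Wwox had 4.

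The 20 genes have varied known roles. NFATC2 carries calcium signals of the T cell receptor to the nucleus, BACH2 restrains effector genes, RORA supports Th17 genes (10 of 33), FOXP1 keeps cells quiescent (9 of 75, 12%) and the calcium channel gene Itpr1 (9 of 37) acts upstream of NFAT. Atxn1 had 10 of 30, the kinase gene Sik3 10 of 29 and the RNA-binding protein genes Celf2 10 of 40, Mbnl1 9 of 39 and Msi2 8 of 31. Rad51b, a DNA repair gene, had 9 of 33, Clec16a 9 of 22 (40.9%), the anchoring protein gene Akap13 9 of 57, Dock10 9 of 35, Arid1b, a chromatin remodeller gene, 9 of 46, the phosphatase gene Inpp4b 9 of 47 and the coactivator gene Ncoa2 9 of 34. The share at Foxp1 was below that of all assigned regions, and those at Nfatc2, Ifng and Trerf1 were more than 3 times as high as it.

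**Figure D3:**
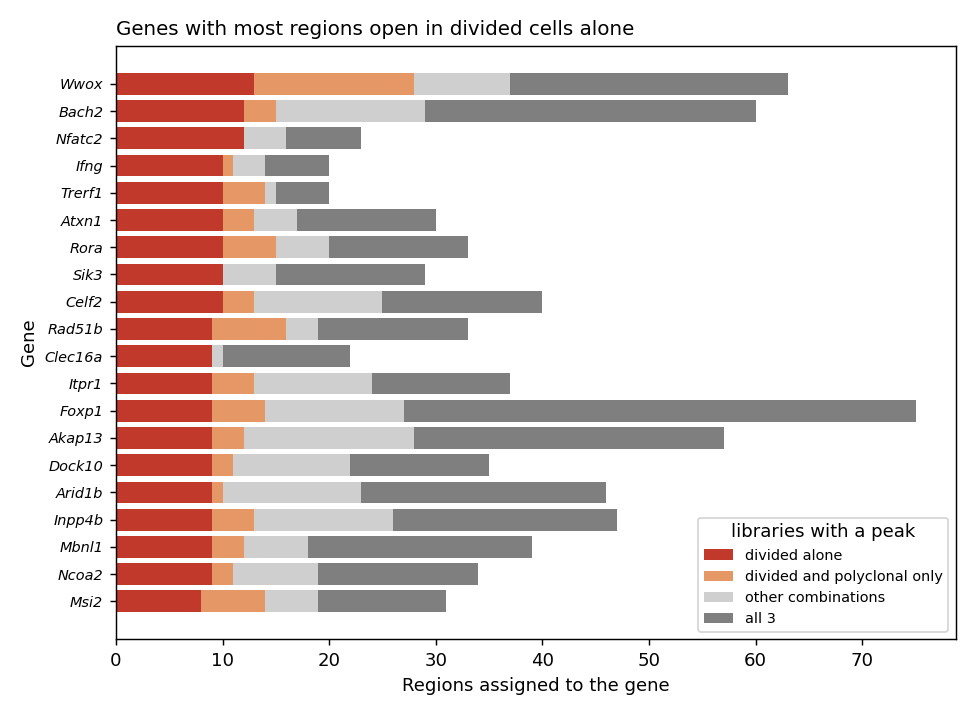
Number of regions assigned to each of the 20 genes with most divided-only regions, split by the libraries with a peak. Nfatc2, Ifng and Trerf1 had about as many divided-only regions as all others together, while at Foxp1 48 of 75 regions were called in all 3 libraries.

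At Ifng the divided-only regions ran from 45.4 kb upstream of the start to 66.8 kb downstream, and 9 of the 10 formed a cluster of 67.4 kb that overlaps the noncoding RNA gene Ifngas1. A region at the start had a pileup of 17 (its sequence is printed above), and 2 inside the gene, 1.07 and 2.13 kb from the start, had 13 and 15. Downstream, the strongest lay 17.9 kb from the start, with 36 piled-up fragments (−log10 q 15.01), followed by regions at 29.7 kb (pileup 21), 40.6 kb (23), 53.5 kb (8), 54.5 kb (13) and 66.8 kb (15). Without the region at 53.5 kb, which fell under the threshold when the divided library was scaled to the depth of the others, 9 remained.

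Between them lay regions called in all 3 libraries, where each library has a pileup. These pileups are raw and were not scaled for depth. By background, the divided library was deeper than the undivided by a ratio of 1.496 and than the polyclonal by 1.40. At 19.4 kb downstream the divided pileup was 43, the undivided 6 and the polyclonal 20, and at 20.6 kb they were 36, 7 and 17. At 28.0 kb they were 28, 11 and 17. Upstream the libraries were closer, with 159, 134 and 143 at 21.9 kb and 46, 39 and 33 at 70.4 kb. A region at 45.9 kb downstream was called in divided (20) and polyclonal cells (16) only. No spread between replicates is known for these values.

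Nfatc2 held 11 of its 12 divided-only regions within 88.8 kb inside the gene, among 16 regions in all. The strongest (chr2:168516482-168517147), 84.8 kb from the start, had 27 piled-up fragments (−log10 q 20.8), and chr2:168577426-168577649, 24.1 kb from the start, had the highest pileup, 63 (−log10 q 14.8). The weakest, 61.0 kb from the start, had a pileup of 8 and was lost at the reduced depth. Within the gene, the regions nearest to its start were called in all 3 libraries. At Rora, where no region was assigned near the start, all 10 lay inside the gene between 279 and 715 kb from the start, and the strongest (chr9:68932629-68933062) had 17 piled-up fragments (−log10 q 12.4). Bach2 had 12, of which 10 overlapped the gene's span of 348 kb, with 55 as the highest pileup. Of these 12, 2 were lost at the reduced depth.

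**Figure D4:**
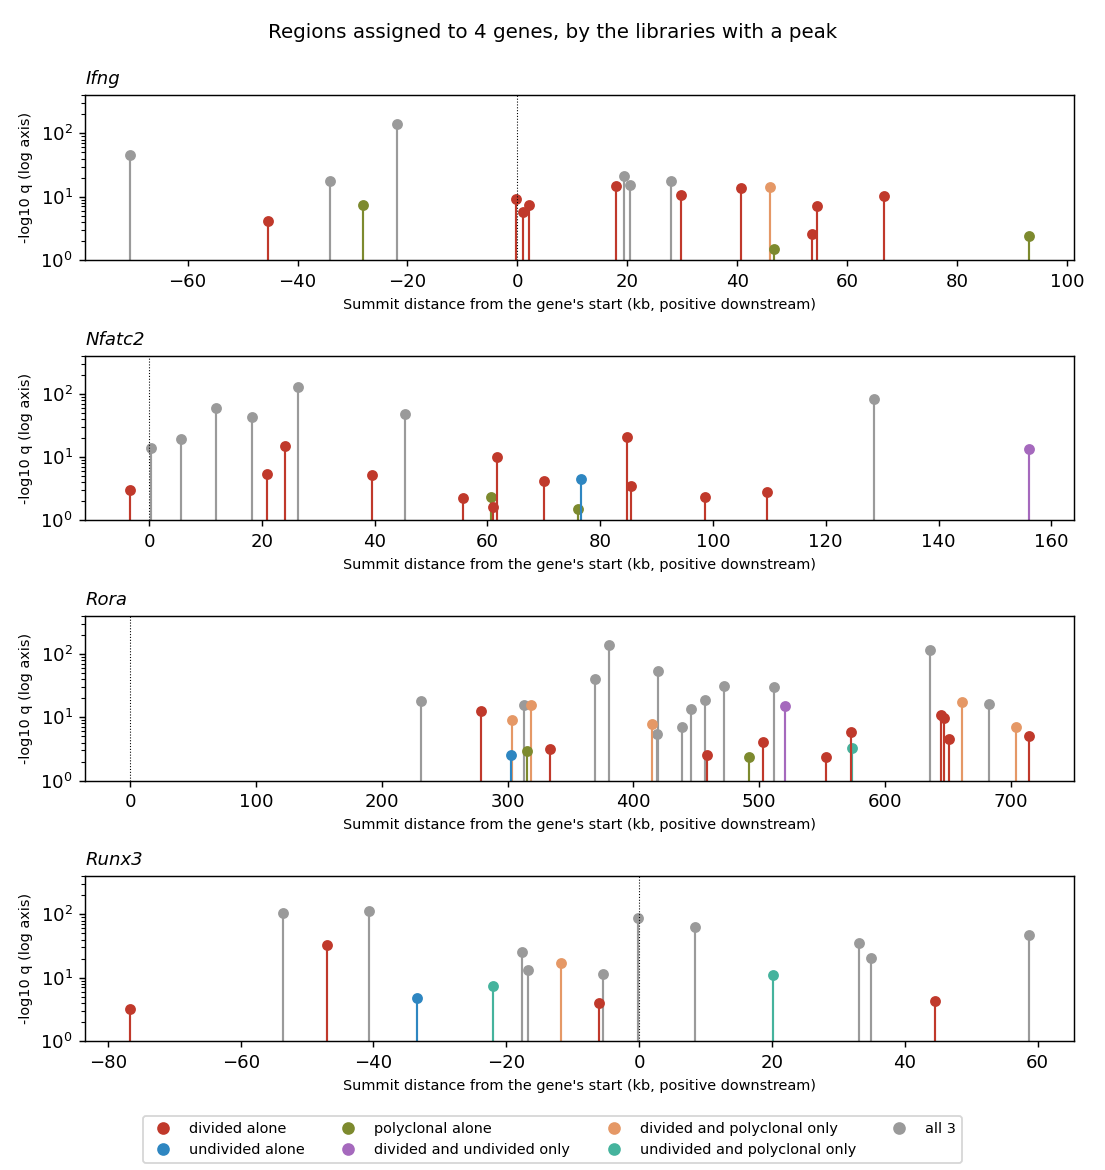
Regions assigned to Ifng, Nfatc2, Rora and Runx3 by distance of the summit from the gene's start in kb (dotted line, positive downstream) and by the highest −log10 q of the libraries with a peak, on a log axis. Colours give the libraries with a peak. Divided-only regions (red) were mostly downstream of the Ifng start, spread through Nfatc2 and Rora, and at Runx3 the strongest stood at 47.0 kb upstream between regions of all 3 libraries.

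Other clusters were found after values were seen. The Psen2 cluster was the tightest of those with 5 or more, with 5 divided-only regions and no other region in 7.97 kb (chr1:180235952-180243921), the strongest at a −log10 q of 21.1. At chr2:128372310-128403621, 5 of 10 regions were divided-only, the strongest at 18.2. This stretch overlaps Morrbid, a noncoding RNA gene known to control the death gene Bcl2l11, which lay 210 kb away. A cluster at chr8:70841275-70893871 had 6 of 9 regions and lay 17733 bp from Il12rb1, which encodes a receptor chain of interleukin-12. At Clec16a, 5 of 8 regions in chr16:10725183-10761430 were divided-only, 22.4 kb from Socs1, an inhibitor of cytokine signals. The cluster at Auh (6 of 8) lay 73.8 kb from Nfil3, and that at Evi5 (5 of 7) 30.3 kb from Gfi1, both genes of lymphocyte transcription factors.

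Lists of T cell genes were then read against the 14.2% of all assigned regions that were divided-only. The 14 lists together had 247 divided-only regions of 1590 (15.5%, 13.8 to 17.4), near the background. With a −log10 q of at least 5 required of every region, 3635 of the 43059 assigned regions left were divided-only (8.44%). The lists' share was then 9.75% (8.25 to 11.5). At least 1 was found at 102 of 182 list genes (56.0%), against 33.0% of all genes, but list genes also had more regions, with a median of 6 against 2. Undivided-only regions made up 4.15% and polyclonal-only 6.35% of the lists' regions, against 5.98% and 7.35% of all assigned regions.

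Th1 genes had 23 divided-only regions (22.8% of their regions, 15.7 to 31.9) and Th17 genes 25 of 96 (26.0%, 18.3 to 35.6), the highest shares of the lists with over 50 regions. Without Ifng the Th1 share was 16.0% (13 of 81, 9.63 to 25.5), an interval that includes the background, and without Rora the Th17 share was 23.8% (15 of 63, 14.99 to 35.6). After Ifng came Runx3 with 4 of 18. The Th17 list had 3 of 8 at Ahr, the receptor for aryl hydrocarbons, of which the strongest (chr12:35623624-35624019) had 11 piled-up fragments (−log10 q 5.97). With assignment within 20 kb, where 13.9% of all regions were divided-only, Th1 genes had 20.3% (12.7 to 30.8). With a −log10 q of at least 5, where the background was 8.44%, Th17 genes had 13.9% (7.72 to 23.7). Both of these intervals include their background, while those of the other settings did not. With a −log10 q of at least 5, Th1 genes had 15.2% (8.91 to 24.7), and within 20 kb Th17 genes had 24.7% (16.6 to 35.1). After scaling for depth, where the background was 13.0%, Th1 genes had 21.8% (14.8 to 30.8) and Th17 genes 22.9% (15.6 to 32.3). These shares include Ifng and Rora. Of the Th1 regions 5 were undivided-only, 8 polyclonal-only (7.92%) and 9 called in divided and polyclonal cells only (8.91%). Of the Th17 regions 3 were undivided-only, 5 polyclonal-only and 20 called in divided and polyclonal cells only (20.8%, 13.9 to 30), a class that made up 7.08% of all assigned regions.

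Th2 genes had 10 of 47 (21.3%, 11.99 to 34.9). Gata3, the master regulator of Th2 cells, had 4 of 13, up to a −log10 q of 10.4, and the chemokine receptor gene Ccr4 had 3 of 7, up to 4.60. The strongest region of the list was the only region assigned to Il13, a Th2 cytokine gene, at chr11:53627720-53628161, 3162 bp from the gene, with 17 piled-up fragments (−log10 q 12.4). Cytotoxic genes had 11 of 48 (22.9%, 13.3 to 36.5), with 0 undivided-only and 0 polyclonal-only regions (each 0 to 7.41%). Of these, 3 of 4 were at the chemokine gene Ccl5, up to 6.14, and 2 of 3 at Klrg1, a receptor gene of late effector cells, whose stronger region (chr6:122258966-122259284) had a pileup of 22 (−log10 q 16.9). Without Ccl5 the cytotoxic share was 18.2% (8 of 44).

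Follicular helper genes had 20 of 109 (18.3%, 12.2 to 26.6). Btla, an inhibitory receptor gene, had 5 of 9, the strongest 62.3 kb from its start with 20 piled-up fragments (−log10 q 14.8), and without it the share was 15%. Icos had 5 of 25, with pileups of 14 to 31. Icos also stands in the list of costimulatory genes, which had 18 (17.8% of their regions, 11.6 to 26.4). There Cd28, the main costimulatory receptor gene, had 6 of 20, with pileups of 10 to 47 and the strongest (chr1:60828215-60828654) at a −log10 q of 17.5. Tnfrsf8 had the strongest region of that list (chr4:145312509-145312921, pileup 38, −log10 q 17.6). Regulatory genes had 13 of 107 (12.1%, 7.24 to 19.7), with 4 of 23 at Nrp1, the strongest at 17.6 (chr8:128535549-128536239), and 3 of 9 at the cytokine gene Il10, up to 13.4. Ebi3 stands in this list, but its promoter region printed above is not among the 13. Each region counted for its nearest protein-coding gene only, and for that region this was not Ebi3.

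Genes of glycolysis, which activated T cells use for growth, had 14 of 78 (17.9%, 11 to 27.9), with 5 of 14 at Hif1a, the regulator of this programme, and 4 of 12 at Pfkp. The Hif1a pileups were 12 to 23, and the strongest (chr12:73895617-73896089), 12 kb upstream, had a −log10 q of 13.9. The strongest region of the list lay inside Pkm (chr9:59659488-59659984), which encodes pyruvate kinase, with a pileup of 89 (−log10 q 23.0). Without Hif1a the share was 14.1%. Cell cycle genes had 3 of 27 (11.1%, 3.85 to 28.1). These were weak, at Rrm2 (pileup 36, −log10 q 4.30), Mcm5 (8, 3.20) and Mcm3.

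Lists near or below the background were activation regulators with 24 of 166 (14.5%), naive and quiescence genes with 54 of 419 (12.9%), migration genes with 13 (12.9%), inhibitory receptors with 17 of 150 (11.3%) and cytokine receptors with 17 of 170 (10.0%). Their intervals all included 14.2%. Among activation regulators Nfatc1 had 5 of 27 and Zeb2 3 of 14, and the strongest region was at Egr2 (−log10 q 11.7). Naive genes had a region near the end of Ccr7 (chr11:99144442-99144790), the lymph node homing receptor gene, with a pileup of 65 (−log10 q 19.4). Tox had 4 of 33 and Izumo1r 3 of 11, S1pr1 3 of 21 and the integrin gene Itga1 3 of 4. Tgfbr2 had 4 of 33 and Il6ra, which encodes the interleukin-6 receptor, 2 of 15, with a pileup of 48 (−log10 q 16.6) at its strongest.

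**Figure D5:**
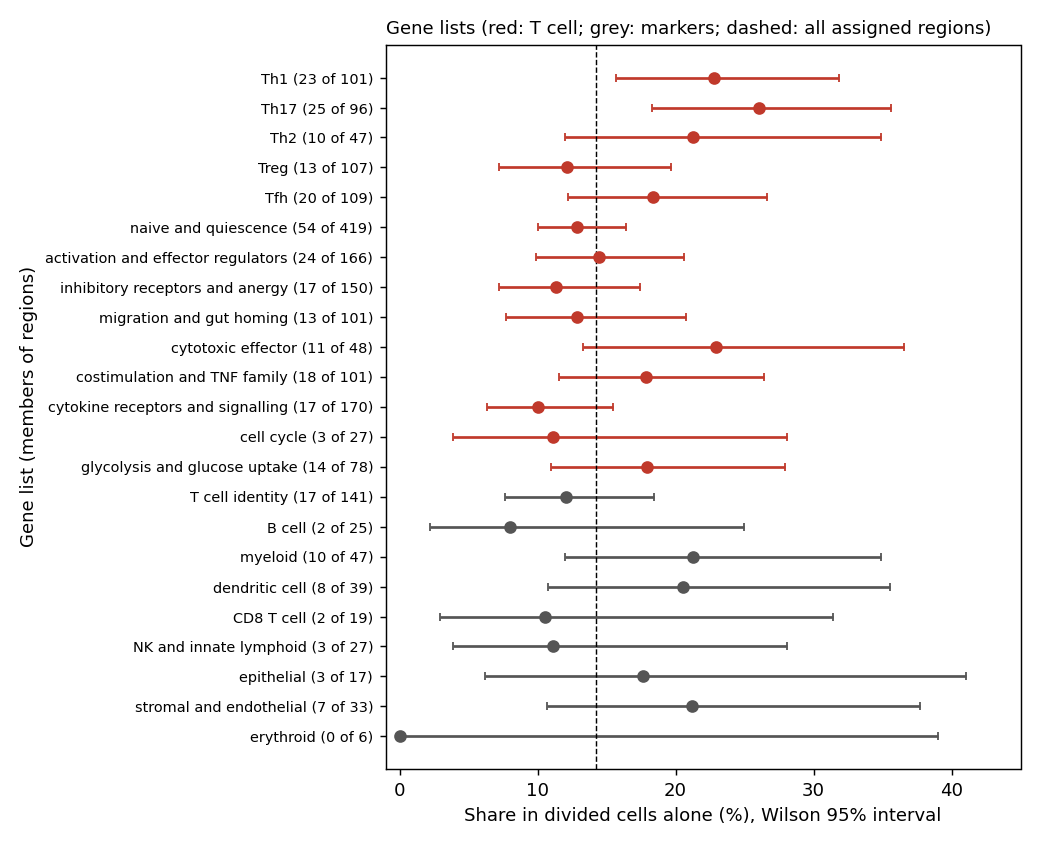
Share of divided-only regions among all regions assigned to the genes of each list, in percent with Wilson 95% intervals (counting error only); red, T cell lists; grey, markers of cell types; dashed line, all assigned regions (14.2%). The intervals of Th1 and Th17 genes, 15.7 to 31.9 and 18.3 to 35.6, lay above the line, and those of the other lists included it; the Th1 interval without Ifng, 9.63 to 25.5, included it too.

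Markers of cell types were counted in the same way. T cell identity genes had 17 of 141 (12.1%), with 4 of 14 at Cd6 and 4 of 22 at Cd247, and all 14 had a gene-end peak in the divided library, as in the undivided and polyclonal ones. B cell markers had 2 of 25, 1 each at Blk and Fcer2a, and gene-end peaks were found at 5 of 10 in divided against 2 in undivided cells. Myeloid markers had 10 of 47 (21.3%), 3 each at Cebpb, Fcgr1 and Itgam, and gene-end peaks were found at 4 of 10 in divided and 5 in undivided cells. Dendritic cell markers had 8 of 39 (20.5%), 2 each at Irf8, Batf and Zbtb46, of which T cells also express Batf and Irf8, and gene-end peaks were found at 6 of 10 in divided and 4 in undivided cells, with Clec9a and Batf3 in the divided library and not in the undivided one. Stromal and endothelial markers had 7 of 33 (21.2%), epithelial 3 of 17, NK and innate lymphoid 3 of 27, CD8 T cell 2 of 19 and erythroid 0 of 6. These intervals all included 14.2%, and the part of other cell types in the divided-only regions was not tested.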

How the data were processed

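ATAC-seq of 3 sorted fractions was analysed from the authors' peak and summit lists, 1 of each per fraction. Per the submitters' processing notes, the mouse build was mm10 and the tools included MACS2 2.1.0 (peak calls), Bowtie2 2.3.2, SAMtools, Picard, Trimmomatic 0.33, cutadapt 1.12 and bcl2fastq 2.17. Not given in the sources used here were read totals, any read shift for the transposase and the handling of duplicate pools. The deposited lists give each peak's score, its fold enrichment as a ratio, its −log10 p and −log10 q and its summit offset. The authors' lowest −log10 q was 1.31, 1.30 and 1.30, and the lists held 47963, 41876 and 44426 peaks in the divided, undivided and polyclonal library.

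Peaks were merged, and pileup and local background were recovered from fold and −log10 p under a Poisson model, to a whole pileup within 0.001 for over 99.9% of peaks (Python 3.11.15, pandas 2.3.3, numpy 2.4.6, scipy 1.17.1). The scripts were tested on simulated data. Regions were assigned to the nearest protein-coding gene within 100 kb in RefSeq GRCm38.p6. Promoter windows and microRNAs came from RefSeq, and chromosome 18 was left out of the sequence steps. The planned motif search around summits needed a genome sequence and was replaced by the promoter windows. Shares have Wilson 95% intervals, and the text reports no test.

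The members and lists were chosen with earlier results of these data known. Genes named are the 20 with most regions and the 2 with most in each list. Regions named are the 12 of highest −log10 q, the strongest of each T cell list and the 5 on either side of the threshold. Further names were chosen after their values were seen.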

Additional observations from a re-analysis of the deposited data

Results flagged for a closer look

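Chromosomes X and Y were left out of the merging rule, and regions there were open in divided cells alone as well: 231 of 1511 merged regions (15.3%, Wilson 95% interval 13.6 to 17.2), close to the 14.3% of chromosomes 1 to 19. The 7 T cell list genes there together had 3 of 24 regions (12.5%, 4.34 to 31.0). These were 1 of 12 at Cd40lg, which encodes a helper cell ligand, 1 of 2 at Cxcr3, a chemokine receptor gene of Th1 cells, and 1 of 3 at Pgk1. Foxp3, the regulator of regulatory T cells, had 0 of 3, Sh2d1a 0 of 2, and Il2rg and Rnf128 0 of 1 each.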

How the results depend on the processing

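A minimum −log10 q changed the counts most: of 7992 divided-only regions 3854 reached 5 and 1068 reached 10. Merging peaks up to 500 bp apart gave 6889, requiring 50% overlap 8723, and scaling the divided library by background 7332 or by shared regions 7637. The share near a gene end (8.78%) was 5.41% with 500 bp and 14.99% with 2 kb either side, 7.12% for regions reaching 10 and 8.52% after scaling by background, a setting chosen after seeing the data. The AP-1 share of promoter windows (8.88%) was 5.26% for regions reaching 10 and 4.63% in the part of the window inside the region, chosen after seeing the data. The share at T cell list genes (15.5%) was 9.75% for regions reaching 5, where divided-only regions were 8.44% of all assigned regions reaching it. Of the 20 genes with most regions, 10 stayed at that minimum, 15 after scaling and 19 with assignment within 20 kb. With fewer regions kept, lower counts follow by construction. The 23 lists moved by less than their intervals within 20 kb and after scaling, and 8 of 23 moved by more with a minimum of 5. Motif alternatives around summits were not run. No paired analysis was possible because each fraction has 1 library and the labels carry no replicate numbers.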
